A study of Mus musculus with 23 samples.

Results

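The comparison set the epithelium of the embryonic harderian gland against the epithelium of the eyelid. Its members were 6 of the 23 arrays of the series, 3 titled as harderian gland epithelium and 3 as eyelid epithelium, all at embryonic day 16.5, and they were chosen by those labels and not by any measured value. The mice of all groups were labelled as background strain B6/CL, with no transgene and no treatment named. The tissues were separated into epithelium and mesenchyme, and the eyelid tissue took in the ocular conjunctiva, so its epithelium mixes outer skin with the moist inner lining. The labels do not say whether the arrays of a group came from separate embryos or litters, so the p-values reflect array-to-array spread alone, which may be technical. That spread was estimated within groups over all 23 arrays. Among these were 3 arrays of adult harderian and 2 of adult lacrimal gland, at 7 weeks of age. Beside the 6 arrays, the 3 arrays each of harderian mesenchyme, eyelid mesenchyme and lacrimal gland epithelium of the same embryonic day and strain were used to show where the difference was or was not shared.

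The harderian gland is a large gland of the orbit in rodents, whose adult acini release lipid and, in many species, porphyrin. It arises as a bud of the conjunctival epithelium that grows into the surrounding mesenchyme and branches, a process in which FGF signals from the mesenchyme are known to drive budding and branching of eye glands. The eyelid epithelium begins as the same sheet of surface ectoderm, but late in gestation its outer face stratifies and cornifies into epidermis, forms hair and lash follicles, and its margins fuse over the eye. Epidermal cornification proceeds from basal cells with keratins 5 and 14, through suprabasal cells with keratins 1 and 10, to dead squames bounded by a protein envelope and extracellular lipid.

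Each level below is the log2 of the background-corrected probe signal minus the 75th percentile of its array, so that a level of 0 is a probe at that percentile. A difference is the harderian minus the eyelid mean of 3 arrays, given with its standard error (SE). A gene was called where its adjusted p from limma, corrected over all 16324 genes by the Benjamini-Hochberg method, was under 0.05. Over all genes 26.6% were called higher and 18% lower in the gland, and counts of a gene list are to be read beside these shares. The gene lists were chosen with earlier results of these data known, so their counts and medians describe them and test no pathway. Where no eyelid or no harderian array showed a gene above background, only a lower bound of the fold is given. Levels of different genes were not set against each other, because probes differ in brightness.

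On the 6 arrays 54.2 to 59.5 percent of spots were well above background and the 75th percentile of signal was 406 to 582 intensity units. Correlation between arrays over all genes was 0.987 to 0.989 among the harderian arrays, 0.985 to 0.988 among the eyelid arrays and 0.892 to 0.906 across them, so no array stood apart from its group. Arrays of the same replicate number shared a slide, so each slide held 1 array of both groups.

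Both labels were borne out by markers of the compartment. All 27 measured epithelial markers, among them Epcam and Cdh1, were well above background on all 6 arrays and brighter in epithelium than in mesenchyme of the same tissue. Between both epithelia 3 of these 27 were called higher and 8 lower in the gland, a median of -0.38. Mesenchymal markers were present in both epithelia but far below their own compartment: the median epithelial minus mesenchymal difference of these markers was -3.33 in the harderian gland and -4.43 in the eyelid. Of the 27 mesenchymal markers 13 were called higher and 3 lower in harderian than in eyelid epithelium, with a median difference of 0.98. Their summed level, in multiples of the 75th-percentile signal, was 228 to 395 on the harderian and 269 to 357 on the eyelid epithelial arrays, which overlap, against 2220 to 2850 and 2180 to 2920 in the mesenchymes. All 17 endothelial markers were brighter in mesenchyme in both tissues. Of these 11 were called higher in harderian epithelium, with a median of 1.19, and their summed level was 34.8 to 39 against 17.5 to 21.8. Red cell markers, whose summed level was 360 to 731 in harderian and 80.1 to 229 in eyelid epithelium, had 5 of 9 called higher. For the globin genes Hba-a1, Hba-x and Hbb-y those calls were lost without harderian replicate 1, without harderian replicate 3 and without eyelid replicate 1, and for Hba-x and Hbb-y also with no scaling and in the fit of the 6 arrays alone. Of 16 immune markers 2 were called higher, with a median of 0.48. By limma's test 0 of 17 skeletal muscle markers were called (1 at an unadjusted p under 0.05), and their summed levels were 1.38 to 7.84 and 3.09 to 8.26. Neuronal markers had 2 of 11 called higher and 2 lower, and fat cell markers 1 of 7 in each direction. Over all genes tested 26.6% were called higher and 18% lower. The part of vessel, blood and mesenchymal cells in the gene differences below was not tested. In tissue arrays more cells of a type and more RNA per cell cannot be told apart.

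Between harderian and eyelid epithelium 4339 genes, 26.6% of those tested, were called higher in the gland and 2944, 18%, were called lower. By at least 2-fold, 1903 genes (11.7%) were higher and 1990 (12.2%) lower. The balance turned with the scaling: median scaling of the arrays gave 2589 higher and 1710 lower, and no scaling 1974 and 1749. The lower side reached much larger fitted differences, with 402 called genes at least 16-fold lower and 76 at least 16-fold higher. Of the 1990 genes at least 2-fold lower, 468 were above background on no harderian array. Of the 1903 higher, 251 were above background on no eyelid array. The fitted differences of such genes rest on signal under background and still entered these counts. Among all called genes 71 were above background in neither epithelium. Of the 7283 called genes 7231 had the same sign within all 3 slides, and 7108 had no overlap between the 6 values. Both counts were taken among genes called on these same values, so they describe the calls and do not test them. The median difference over all genes was 0.11. Among the 1903 genes at least 2-fold higher, 1274 were brighter in harderian epithelium than in harderian mesenchyme and 629 were not. Among the 1990 lower genes, 1573 were brighter in eyelid epithelium than in eyelid mesenchyme.

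The 15 genes with the largest difference on the eyelid side were mostly genes of the outer epidermis, and 11 of them were above background on no harderian array. Loricrin (Lor), the main protein of the cornified envelope by mass, had levels of 9.74, 9.43 and 9.10 in eyelid epithelium and -3.36, -3.04 and -2.75 in harderian epithelium. The loricrin values of the groups lay far apart, with a difference of -12.48 (SE 0.44, adjusted p 2.87e-13). Krt1, a keratin of the first suprabasal layers, had 8.08, 8.33 and 7.93 in the eyelid and -4.13, -3.45 and -3.98 in the gland, a difference of -11.97 (SE 0.29, adjusted p 3.82e-15). Both genes were bright in every eyelid sample and low, though above background, in every gland sample. The gene 2310034C09Rik had the lowest difference of all, with levels of 7.92, 8.21 and 7.61 in the eyelid. It was not well above background on any harderian array, which gave at least 6390-fold higher signal in the eyelid. On the same footing Fam25c was at least 3030-fold, Krtap13 at least 2080-fold and Crct1 at least 1440-fold higher in eyelid epithelium. Hrnr, an S100 fused-type protein of the cornified layer, was at least 551-fold higher there. The skin protease inhibitor Spink5 was at least 481-fold higher, and the small proline-rich envelope protein Sprr1b at least 385-fold. Acer1, a ceramidase of the epidermis, was at least 653-fold higher in the eyelid. Ly6d and Dmkn (dermokine) were measured on all 6 arrays, with differences of -11.98 and -11.49.

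**Figure D1:**
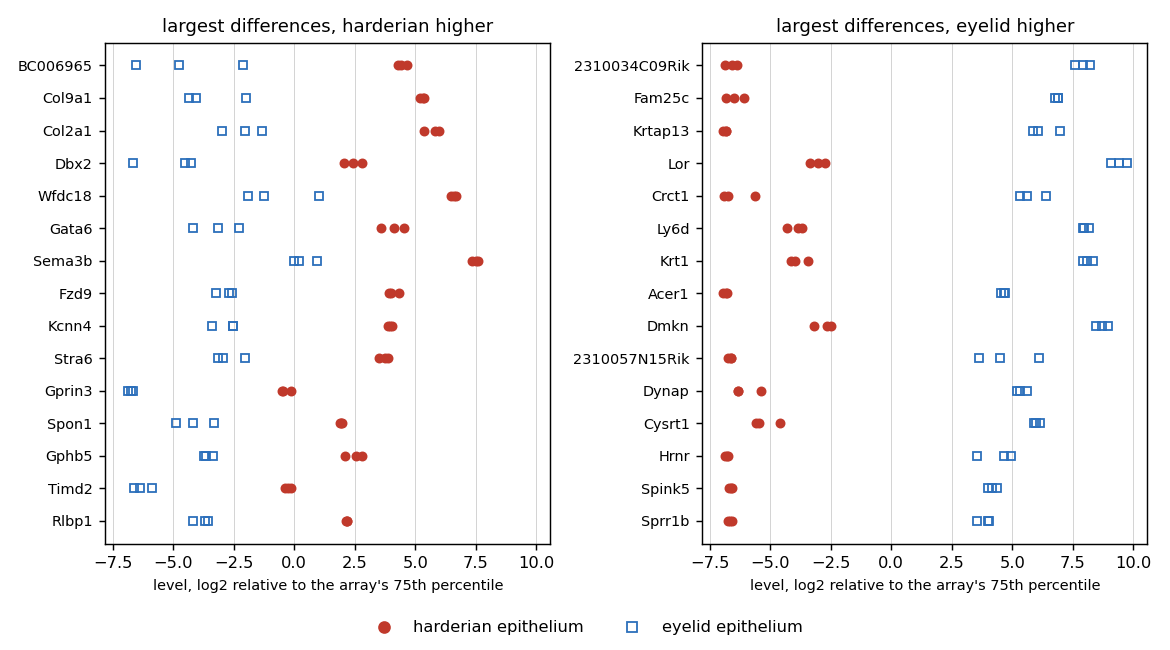
Level of the 15 genes with the largest difference in each direction, one point per array (3 harderian epithelium, filled circles; 3 eyelid epithelium, open squares), as log2 signal relative to the array's 75th percentile. The points of both epithelia stay apart for all 30 genes because only genes without overlap were chosen. The harderian points of Hrnr, Acer1 and Krtap13 lie at the floor of the scale.

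Of 40 measured genes of the cornified envelope and its processing, 39 were called lower in harderian epithelium, with a median difference of -7.13 against 0.11 over all genes. Of these genes 17 were above background on no harderian array, and with such genes at their bound the median was -6.55. Ivl (involucrin), an envelope precursor, had levels of 1.43, 1.84 and 0.80 in eyelid and -5.68, -6.20 and -6.59 in gland, the latter all under background, which gives at least 67.9-fold. The proteases Klk5 and Klk7, which loosen the squames, were at least 441-fold and 14.9-fold higher in the eyelid. Transglutaminases Tgm1 and Tgm5, which crosslink the envelope, differed by -3.53 and -3.13. The exception was Tgm3, whose brightest probe gave 0.14 (adjusted p 0.717), while a second probe of the gene, above background on 3 eyelid arrays and 1 harderian array, gave -4.51. Probes of Lce1a2 also disagreed in size, with -1.38 and -4.35.

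Many of these genes are neighbours. In the gene order of the reference annotation the run from S100a10 to S100a1, the epidermal differentiation complex on chromosome 3, holds 70 protein-coding genes, of which 41 were measured, 31 were called lower, all by at least 2-fold, with a median of -3.27. Members of the run that were not called included S100a8, S100a9 and S100a4. Sbsn, Dmkn and Krtdap, which stand next to each other on chromosome 7, differed by -7.03, -11.49 and -10.01. Among the clade B serpins on chromosome 1 from Serpinb5 to Serpinb8, 9 of 10 measured genes were called lower, with a median of -6.85, and Serpinb8 was not called. These runs were chosen after the values were seen.

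Promoters of this list were searched for TGANTCA, the letters bound by AP-1 factors, on both strands (the motif reads the same on both apart from its middle base). The RefSeq promoter table (GRCm38.p6) held 35 promoters of 30 of the 40 genes, each 300 bases long, and 12 of these promoters (34.3%), from 10 genes, held the motif, 3 of them from Dmkn starts. The motif was held by 7.81% of all 32851 promoters there. Shown are the 250 bases before the start site of 5 members with the motif in capitals. They were picked as list members that differed much or are best known. A match of letters is a description and not a binding site.
Lor: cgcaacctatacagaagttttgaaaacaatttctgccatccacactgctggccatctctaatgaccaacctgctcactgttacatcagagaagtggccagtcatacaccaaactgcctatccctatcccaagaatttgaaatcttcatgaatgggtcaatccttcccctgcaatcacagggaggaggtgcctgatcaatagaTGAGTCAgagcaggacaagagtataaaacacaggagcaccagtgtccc
Sprr1b: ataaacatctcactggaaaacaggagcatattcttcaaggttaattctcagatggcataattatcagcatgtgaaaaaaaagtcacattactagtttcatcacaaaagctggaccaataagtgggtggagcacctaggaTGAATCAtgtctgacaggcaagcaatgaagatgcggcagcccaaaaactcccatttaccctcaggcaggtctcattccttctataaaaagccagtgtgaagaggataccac
Ivl: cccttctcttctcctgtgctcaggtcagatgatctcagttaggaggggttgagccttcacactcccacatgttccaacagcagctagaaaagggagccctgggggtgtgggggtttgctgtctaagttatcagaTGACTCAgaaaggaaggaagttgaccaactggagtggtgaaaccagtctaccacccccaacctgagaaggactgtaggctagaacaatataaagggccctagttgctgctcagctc
Dmkn: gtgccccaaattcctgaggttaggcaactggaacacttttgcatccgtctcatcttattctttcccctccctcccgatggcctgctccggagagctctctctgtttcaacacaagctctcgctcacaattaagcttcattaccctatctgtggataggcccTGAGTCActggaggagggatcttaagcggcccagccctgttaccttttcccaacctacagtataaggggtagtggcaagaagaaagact
Krtdap: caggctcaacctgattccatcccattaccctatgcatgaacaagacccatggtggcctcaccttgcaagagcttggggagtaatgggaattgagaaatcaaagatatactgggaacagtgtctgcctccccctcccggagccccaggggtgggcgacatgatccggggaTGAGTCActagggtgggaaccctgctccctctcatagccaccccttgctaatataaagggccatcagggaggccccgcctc
These stretches lie at chr3:92083143-92083392, chr3:92438780-92439029 and chr3:92573736-92573985 on the minus strand and at chr7:30763506-30763755 and chr7:30787655-30787904 on the plus strand. The motif began 48 bases before the start of Lor, 111 before that of Sprr1b, 116 before Ivl, 89 before Dmkn and 81 before Krtdap. Among AP-1 subunits in the lists, Fosl2 and Junb were called lower in harderian epithelium (-4.73 and -2.01), and Jun was not called (-1.0, adjusted p 0.0964). A second probe of Fosl2, above background on no harderian array, was at least 2.96-fold higher in the eyelid.

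All 4 basal keratins were called lower in the gland, between -3.67 for Krt5 and -3.36 for Krt15. Krt5 nevertheless had a positive level on every harderian array, 5.55, 5.67 and 5.83, against 9.52, 9.26 and 9.28 in the eyelid, and Krt14 had 4.31, 4.43 and 4.51 against 7.53, 7.76 and 8.14. Krt5 and Krt14 were thus well above background in both epithelia, and were 12.7-fold and 10.5-fold higher in the eyelid. Of 14 suprabasal and stress keratins 13 were called lower, with a median of -4.77, and Krt10, the partner of Krt1, had 1.01, 0.61 and 0.78 against 9.11, 8.78 and 8.48. A second probe of Krt10 gave -11.74. Krt2 was not called by its brightest probe (-0.28), while another probe, above background only in the eyelid, was at least 2.23-fold higher there. Hair and nail keratins had 9 of 15 called lower, with a median of -3.15 (-2.53 with dim genes at their bound), led by Krt34 and Krt35, which were at least 63.9-fold and 46.1-fold higher in the eyelid. The keratins of simple epithelium did not move as one group. Krt8 had 5.16, 5.18 and 4.99 in gland and 4.13, 3.52 and 4.18 in eyelid, a difference of 1.16 (adjusted p 0.0407) that missed the threshold with the replicate number as a block (adjusted p 0.0602) and without each of the 6 arrays in turn (adjusted p 0.0532 to 0.149). Its partner Krt18 differed by 1.08 (adjusted p 0.0577). Krt18 passed under some alternatives, among them the filter on all 23 arrays (adjusted p 0.0408) and normexp background correction (adjusted p 0.0331). It also passed in the fit of the 6 arrays alone (adjusted p 0.00971) and without eyelid replicate 3 (adjusted p 0.0414). With the replicate block it did not pass (adjusted p 0.0767). Krt7 and Krt19, which conjunctiva also makes, differed by -5.09 and -3.19, and Krt4 and Krt13, keratins of moist stratified epithelium, by -5.81 and -3.60, with a second probe of Krt13 at -6.15.

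Genes for the extracellular lipid of the skin barrier were also lower in the gland. Of 30 measured genes 25 were called lower and 1 higher, with a median of -3.43. Beside Acer1 the largest differences were those of the phospholipase Pla2g2f (-8.53), of the lamellar granule transporter Abca12, at least 107-fold, and of Sptlc3, a subunit of the first enzyme of sphingolipid synthesis, at least 111-fold. The lipoxygenases Aloxe3 and Alox12b differed by -5.46 and -3.01, and Elovl4, which makes very long fatty acids, by -7.19. A second probe of Alox12b gave -8.50. A second probe of Sptlc3 was above background on none of the 6 arrays. Cers4, a ceramide synthase, was the member called higher (0.59).

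Desmosomal and gap junction genes of stratified epithelium were lower, and the core adherens and tight junction genes were mostly not called. Of 23 desmosome, cadherin and connexin genes 16 were called lower and 1 higher, with a median of -1.32. Dsg3 was at least 23-fold higher in the eyelid, and Pkp1 and Gjb6 differed by -5.65 and -6.05. Desmoplakin (Dsp) differed by -2.68 and E-cadherin (Cdh1) by -0.71 (adjusted p 0.21). The member called higher was Cdh6 (1.83), which was brighter in harderian mesenchyme than in harderian epithelium. Of 24 claudins and tight junction genes 5 (20.8%) were called higher and 2 (8.33%) lower, under the 26.6% and 18% of all genes, with a median of 0.03. Cldn1, the claudin of the epidermal barrier, had -3.37, -3.09 and -3.14 in gland against 0.99, 1.72 and 1.82 in eyelid. Cldn10, which forms ion-selective pores, ran the other way with 0.85, 0.78 and 0.76 against -2.35, -2.40 and -2.04. Harderian mesenchyme had Cldn10 levels of 1.11, 0.94 and 0.97, slightly above those of harderian epithelium. Cldn7 was higher by 1.74.

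Serpins, cystatins and other protease inhibitors had 20 of 26 genes called lower and 1 higher, with a median of -4.94 (-4.62 with dim genes at their bound). Serpinb7, Serpinb3a and Serpinb12 were at least 180-fold, 127-fold and 140-fold higher in the eyelid. Serpinb3 paralogs are near-identical, so their probes may read more than 1 of them. Wfdc2 was the member called higher (1.29). Of 28 genes of epithelial defence 17 were called lower and 4 higher, with a median of -2.64 (-1.64 with dim genes at their bound). The interleukin 36 group genes listed as Il1f5, Il1f6, Il1f9 and Il1f8 and the acute-phase proteins Orm1 and Orm2 were above background on no harderian array, with bounds of at least 236-fold, 123-fold, 25.7-fold, 14.9-fold, 241-fold and 291-fold. Against that direction the neutrophil chemokine Cxcl1 was higher in harderian epithelium, with 1.34, 1.26 and 1.76 against -3.02, -3.31 and -1.33 (4.01, SE 0.64, adjusted p 5.25e-05), and Il33 was higher by 2.08. Lyz1, also called higher, was brighter in harderian mesenchyme than in harderian epithelium.

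The list of epithelial transcription factors held members with and without a call. Trp63, the master factor of stratified epithelium, had 2.15, 2.24 and 1.96 in gland and 3.21, 2.40 and 2.42 in eyelid, a difference of -0.56 (SE 0.26, adjusted p 0.0873), with eyelid replicate 1 above the rest. The difference of Trp63 passed with the replicate block (adjusted p 0.0148). Grhl2, Ovol2, Ehf, Elf3 and Esrp1, factors shared by most epithelia, were not called, with differences between -0.62 and 0.17. Second probes of Esrp1 and Ehf gave 0.07 and -0.17. Factors of terminal epidermal differentiation were lower. Hopx had -1.74, -1.30 and -1.98 against 4.97, 5.29 and 5.37, a difference of -6.88 (SE 0.26, adjusted p 6.79e-13), and Pou3f1 and Foxn1 differed by -4.27 and -4.26. Klf4, Prdm1, Ovol1, Zfp750 and Grhl3 were all called lower, from -4.01 to -2.20. Over the list 17 of 28 were called lower and 1 higher, Rest (0.36), with a median of -1.86.

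The genes highest in the gland relative to the eyelid were of another kind. Col9a1, a chain of collagen IX, had levels of 5.34, 5.20 and 5.37 in harderian epithelium and -1.99, -4.36 and -4.07 in eyelid epithelium (8.78, SE 0.70, adjusted p 1.05e-08). Col2a1, the main collagen of cartilage, had 5.98, 5.35 and 5.83 against -2.03, -2.99 and -1.33 (7.84, SE 0.54, adjusted p 1.5e-09). The gland values of each collagen lay close together, and the eyelid values were low and more scattered. Col9a3 and Col9a2 were higher by 5.14 and 3.78 and Cnmd (chondromodulin) by at least 12.4-fold. The matrix genes most specific to mature cartilage did not follow, with Acan at -0.25 and Matn4 at -0.01, neither called. Of the 14 cartilage genes 7 (50%) were called higher, against 26.6% of all genes, with a median of 0.93. Col9a1 and Col2a1 were brighter in harderian epithelium than in harderian mesenchyme, by 5.28 and 5.09, whereas Col9a2 was dimmer there.

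The other leading genes of the gland encode secreted, membrane and regulatory proteins. Sema3b, a secreted semaphorin, had 7.52, 7.34 and 7.60 against 0.95, -0.02 and 0.18 (7.12, SE 0.43). Wfdc18, a small secreted protein with a WAP domain, had 6.68, 6.61 and 6.46 against 1.02, -1.91 and -1.27 (7.31, SE 0.66). In the eyelid, replicate 1 was highest for both genes. That all eyelid values stayed below all gland values follows from the rule that chose the leading genes. Kcnn4, a calcium-activated potassium channel, was higher by 6.80, the homeobox gene Dbx2 by 7.57, with 2 of 3 eyelid arrays above background, and Spon1, the matrix protein F-spondin, by 6.06. Rlbp1, a retinoid-binding protein best known from the retina, was higher by 5.97, while 3 of the other 6 lens and retina genes were called lower. Gprin3 and Timd2, which had no eyelid array above background, were at least 19.2-fold and 20.8-fold higher, and a second probe of Timd2 at least 1.87-fold. The hormone subunit gene Gphb5 differed by 6.05. BC006965 had a fitted difference of 8.92 (SE 0.83), but only 1 of 3 eyelid arrays was above background, and with the other two at the floor of measured signal it was 8.20, below that of Col9a1.

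Among factors of gland and eye development Gata6, a zinc finger factor, stood first. It had 4.54, 3.60 and 4.13 in harderian and -2.27, -4.19 and -3.17 in eyelid epithelium, a difference of 7.30 (SE 0.48, adjusted p 8.68e-10), with 2 of 3 eyelid arrays above background. Its level was also higher in harderian than in eyelid mesenchyme, by 3.97. Sox10, which marks neural crest derivatives and the distal epithelium of several glands, had 5.58, 5.43 and 5.49 against 1.43, 1.42 and 2.03 (3.87, SE 0.29, adjusted p 4.24e-09). Sox9, a factor of gland buds and cartilage, had 3.35, 2.61 and 2.94 against 0.03, -0.34 and -0.16 (3.12, SE 0.24, adjusted p 8.12e-09). For all 3 factors every harderian array was above every eyelid array. For Gata6 this was also a condition of its place among the leading genes. Schwann cells also carry Sox10. Of 8 Schwann cell markers 3 (37.5%), Fabp7, S100b and Erbb3, were called higher (5.02, 2.38 and 1.33). Another 2 (25%) were called lower, among them Foxd3 (at least 1.44-fold higher in the eyelid). Over all genes these shares were 26.6% and 18%. Cdh19 was above background on none of the 6 arrays. The summed level of the list was 31.7 to 40.5 in harderian and 9.86 to 12.5 in eyelid epithelium, against 20 to 21.6 in harderian mesenchyme. Fabp7 was brighter in harderian epithelium than in its mesenchyme by 3.39. But 5 of the 8 markers were brighter in harderian mesenchyme. Among them was S100b, with 3.97, 3.94 and 4.13 there against -1.40, -0.56 and 0.03 in harderian epithelium. The part of Schwann cells in the Sox10 difference was not tested.

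The eye field regulators moved less. Pax6, needed for eye and eye gland formation, had 1.80, 1.79 and 1.60 against 1.09, 0.93 and 1.54 (0.55, SE 0.47, adjusted p 0.376), and Foxc1 had 3.63, 3.27 and 3.47 against 2.72, 2.44 and 3.0 (0.73, adjusted p 0.0681). Pax6 and Foxc1 thus had every gland value above every eyelid value without passing the threshold, and Foxc1 passed with the replicate block (adjusted p 0.0217). Elf5 differed by -0.05 (adjusted p 0.947). Barx2 had 0.92, 1.21 and 0.74 in gland and 1.20, 3.41 and 1.09 in eyelid, where replicate 2 stood apart, and it was not called (-0.95, adjusted p 0.119). Without eyelid replicate 3 the difference of Barx2 was -1.35 (adjusted p 0.0402). Six2 was lower in the gland, 0.10, 1.29 and 1.39 against 2.98, 2.66 and 3.22 (-2.03, adjusted p 0.000962), and so was Pitx1 (-2.70), whose call was lost without harderian replicate 1 and without eyelid replicate 3. With the replicate block, a limma fit without the adult arrays, Pitx1 had an adjusted p of 1.92e-06. Of the 34 factors 7 (20.6%) were called higher and 5 (14.7%) lower, under the 26.6% and 18% of all genes, with a median of 0.25.

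**Figure D2:**
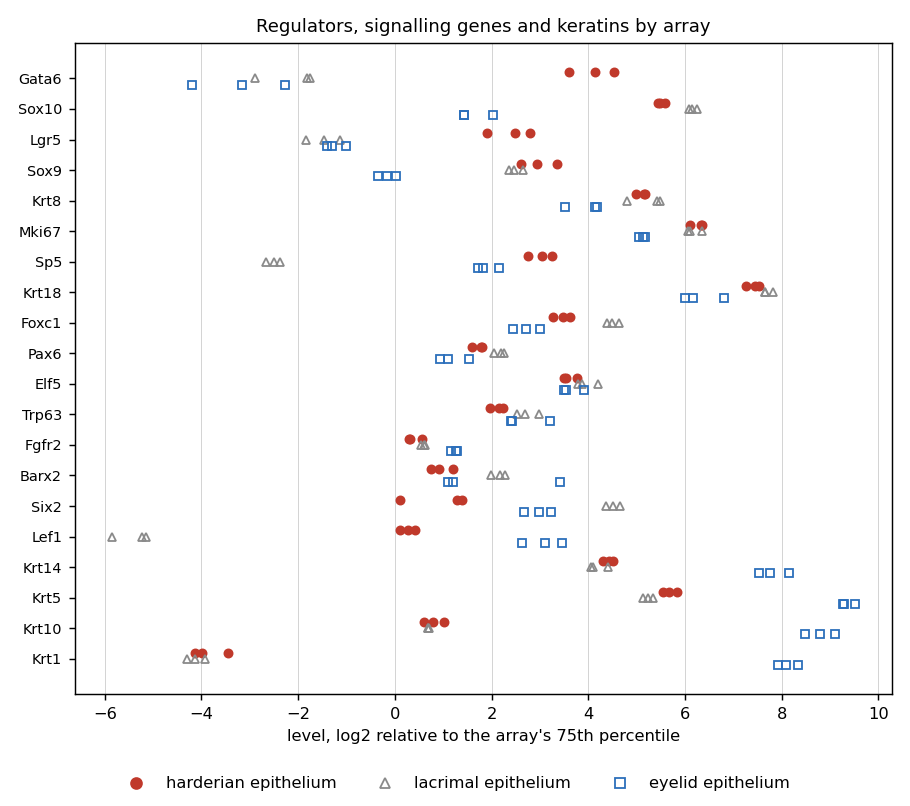
Level of 20 regulators, signalling genes and keratins on each array of harderian (filled circles), lacrimal (open triangles) and eyelid epithelium (open squares), 3 arrays each, as log2 signal relative to the array's 75th percentile. Gata6, Sox10, Lgr5 and Sox9 at the top are higher in the gland, Krt10 and Krt1 at the bottom are far higher in the eyelid, and Elf5 points overlap.

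Most genes of the FGF response list were higher in the gland. Of 18 measured genes 13 were called higher and 2 lower, with a median of 1.60 (0.97 with 2 dim genes at their bound). The ETS factors Etv4 and Etv5, which FGF signals switch on, led the list. Etv4 had 6.83, 6.46 and 6.68 in gland against 2.0, 1.75 and 1.80 in eyelid (4.81, SE 0.28, adjusted p 1.37e-10), and Etv5 had 7.15, 6.70 and 7.09 against 3.37, 3.37 and 3.61 (3.53, SE 0.23, adjusted p 8.43e-10). The feedback inhibitors Dusp6, Il17rd and Spry2 were higher by 2.34, 2.51 and 1.93, and Spry4 by at least 1.84-fold. The 2 genes called lower were Mycn (-3.55) and Egr1 (-1.97), an immediate early gene that many signals induce. Mycn was slightly brighter in eyelid mesenchyme (0.13, 0.13 and 0.22) than in eyelid epithelium (-0.27, -0.19 and 0.08). The receptors themselves did not rise together. Fgfr2, whose epithelial isoform receives FGF7 and FGF10, had 0.56, 0.29 and 0.32 against 1.15, 1.26 and 1.28 (-0.84, SE 0.11, adjusted p 4.79e-06), lower in the gland, a call that median scaling of the arrays removed. Fgfr3 differed by -3.95, or -1.77 by a second probe. Fgf7, called higher, was brighter in harderian mesenchyme than in harderian epithelium, and Fgfr1 and Fgfrl1, also called higher, had overlapping levels in both. Fgf22 was at least 6.59-fold higher in the eyelid, and Fgfbp1, a carrier protein that releases FGFs, differed by -5.09.

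Of 17 Wnt response genes 6 (35.3%) were called higher and 3 (17.6%) lower, near the 26.6% and 18% of all genes, and the median was -0.25. Lgr5, a receptor that amplifies Wnt signals and is itself a target, had 2.79, 1.91 and 2.50 in gland against -1.30, -1.41 and -1.02 in eyelid (3.64, SE 0.29, adjusted p 1.25e-08). Ccnd1 (cyclin D1) was higher by 3.48 and Nkd1 by 2.37. The target factor Sp5 had 3.04, 2.75 and 3.24 against 1.71, 1.83 and 2.16 (1.11, adjusted p 0.0211), a call lost without any of 4 single arrays (harderian replicates 1 and 3, eyelid replicates 1 and 2). Lef1, a nuclear partner of beta-catenin needed for hair placodes, went the other way with 0.26, 0.11 and 0.41 against 3.11, 3.46 and 2.63 (-2.81, SE 0.41, adjusted p 2.13e-05). Axin2, a feedback target in most tissues, was not called (-0.90, adjusted p 0.0586). A second probe of Nkd2, whose brightest probe gave 0.27, gave 3.04. The letters CTTTGAT, bound by TCF and LEF factors, were present on either strand in 2 of 16 promoters of 10 of these genes (12.5%), those of Sp5 and Tnfrsf19, against 3.73% of all promoters. The promoter of Sp5 is shown as the one of a called member, 250 bases before the start with the motif in capitals.
Sp5: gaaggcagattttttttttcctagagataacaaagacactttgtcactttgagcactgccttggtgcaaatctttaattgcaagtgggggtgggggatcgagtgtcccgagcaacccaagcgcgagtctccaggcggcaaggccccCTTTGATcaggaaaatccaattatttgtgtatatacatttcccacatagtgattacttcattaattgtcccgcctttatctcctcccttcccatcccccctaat
This stretch lies at chr2:70474673-70474922 (GRCm38.p6, plus strand), and the motif began 104 bases before the start.

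Among 39 Wnt ligands, receptors and modulators 12 (30.8%) were called higher and 17 (43.6%) lower, with a median of -0.51. Over all genes these shares were 26.6% and 18%. The receptor Fzd9 had 4.31, 3.91 and 3.98 in gland and -2.70, -3.22 and -2.58 in eyelid (6.90, SE 0.65, adjusted p 8.98e-08). Several Wnt ligands were higher in the eyelid. Wnt3 was not well above background on any harderian array and was at least 71.2-fold higher in the eyelid. Wnt7b, Wnt16 and Wnt4 differed by -5.09, -4.05 and -2.67, with a second probe of Wnt16 at least 37.3-fold higher in the eyelid, while Wnt10a and Wnt10b, ligands of hair placodes, differed by -2.32 and -2.60. Frzb, a secreted inhibitor, was at least 3.06-fold higher in harderian epithelium but brighter still in its mesenchyme.

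Hedgehog ligand and targets were lower in the gland. Shh had -1.83, -1.36 and -1.60 in eyelid epithelium and was above background on no harderian array, at least 8.77-fold. Gli1, the most used readout of the pathway, had -3.55, -2.06 and -1.80 against 3.88, 3.59 and 3.29 (-6.06, SE 0.37, adjusted p 3.15e-10), and Ptch1 had -3.82, -3.15 and -4.23 against 0.17, 0.03 and -0.48 (-3.64, SE 0.33, adjusted p 5.79e-08). The ligand and both targets were lower on every gland array. Eyelid mesenchyme had Gli1 levels of 3.81, 3.06 and 3.21, which overlap those of eyelid epithelium. Of 16 genes 11 were called lower and 2 higher, Dhh and Gli3, with a median of -1.18. Placode and follicle genes had 13 of 20 (65%) called lower and 3 (15%) higher, against 18% and 26.6% of all genes, with a median of -1.60. Hoxc13, a hair factor, was at least 12.2-fold higher in the eyelid, and Lhx2 and Tchh differed by -4.35 and -4.67. The ectodysplasin receptor Edar was among those called higher in the gland (1.06).

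Of 31 genes of the EGF family and of eyelid closure 13 (41.9%) were called lower and 1 (3.23%) higher, with a median of -0.67. Over all genes these shares were 18% and 26.6%. The ligand Ereg was at least 20.6-fold higher in the eyelid, and Areg, Nrg4, Btc and Epgn differed by -2.45, -2.35, -2.08 and -2.02. Their receptor Egfr differed by -1.36, while Erbb3 was higher in the gland (1.33). Genes whose loss leaves eyelids open at birth were not uniformly different: Map3k1, Tgfa, Adam17 and Inhba, at 0.15, 0.06, 0.46 and -0.65, were not called.

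In the BMP and TGF-beta list 13 of 35 genes (37.1%) were called higher and 9 (25.7%) lower, with a median of -0.13. Over all genes these shares were 26.6% and 18%. Bmp2 had -1.52, -1.65 and -1.34 in gland against 2.41, 2.44 and 2.12 in eyelid (-3.82, SE 0.38, adjusted p 1.95e-07), and its receptor Bmpr1b differed by -3.01. The targets Id1 and Id4 moved in opposite directions, -1.92 and 2.89. Notch genes had 6 of 21 (28.6%) called higher, near the 26.6% of all genes, and 8 (38.1%) lower, against 18%. Notch1, Jag1 and the target Nrarp were lower (-1.64, -2.13 and -2.48; a second probe of Notch1 gave -0.43), and the target Hey1 was higher, 2.09, 2.13 and 2.18 against -0.65, -0.83 and -0.24, at a level in harderian epithelium close to that of its mesenchyme (-0.16).

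Retinoic acid genes included some of the larger gland differences. Stra6, the cell-surface receptor that takes up retinol, had 3.76, 3.51 and 3.86 in gland and -2.94, -3.17 and -2.04 in eyelid (6.43, SE 0.34, adjusted p 5.04e-11). Aldh1a3, which makes retinoic acid from retinaldehyde, had 3.99, 3.62 and 3.97 against 0.27, -0.40 and 0.62 (3.69, SE 0.34, adjusted p 8.45e-08). The retinol dehydrogenase Rdh10 was higher by 1.54. Cyp26b1, which degrades retinoic acid, differed by -4.05. It was brighter in eyelid mesenchyme (4.70, 4.35 and 4.31) than in eyelid epithelium (2.36, 3.30 and 1.68). Over the list 6 of 18 (33.3%) were called higher and 5 (27.8%) lower, against 26.6% and 18% of all genes, with a median of 0.26.

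Cell cycle genes rose together in the gland relative to the eyelid. Of 33 measured genes 31 were called higher, with a median of 1.32 and a highest difference of 1.85 for Cdk1. The other two, Cenpf and Cdk2, gave 1.07 (adjusted p 0.298) and 0.12 (adjusted p 0.649). Mki67, a marker of cycling cells, had 6.35, 6.11 and 6.33 in gland against 5.05, 5.18 and 5.12 in eyelid (1.15, SE 0.15, adjusted p 7.3e-06). Cdk1 had 3.24, 3.01 and 3.76 against 1.65, 1.44 and 1.37 (1.85), with a second probe at 0.69. The median of these genes was 1.34 higher in harderian epithelium than in its mesenchyme and -0.22 in the eyelid. Inhibitors of cyclin-dependent kinases ran against them, with 7 of 10 called lower. Cdkn1a (p21) had -0.52, -0.57 and -0.69 against 3.79, 4.07 and 4.0 (-4.55, SE 0.25, adjusted p 6.47e-11), and Cdkn2b (p15) had -2.27, -2.38 and -1.90 against 2.16, 2.43 and 2.52 (-4.55, SE 0.33, adjusted p 2.81e-09). Cdkn1b was not called (0.44).

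Basement membrane genes went both ways. Components of the anchoring complex of stratified epithelium were lower in the gland: Col7a1, the anchoring fibril collagen, had 2.32, 2.52 and 1.92 against 6.31, 6.04 and 5.78 (-3.79), and Col17a1, Lamb3 and Lama3 differed by -2.96, -2.77 and -2.44. Itga9 was higher, 3.97, 3.55 and 3.64 against -1.74, -1.53 and -0.85 (5.09, SE 0.23, adjusted p 6.71e-12), and Lama1 and Npnt, a ligand of integrin alpha 8, by 1.92 and 1.94. Lama4, Nid2, Nid1, Col4a1 and Col4a2 were also called higher, and all were brighter in harderian mesenchyme than in harderian epithelium. Of 36 genes 16 (44.4%) were called higher and 10 (27.8%) lower, against 26.6% and 18% of all genes. The median was 0.38 (0.19 with 1 dim gene at its bound).

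Of 25 genes of the mature secretory function 8 (32%) were called higher and 5 (20%) lower, near the 26.6% and 18% of all genes, with a median of 0.28. Aqp5, the water channel of secretory acini, had -1.88, -1.89 and -2.22 in gland and was above background on no eyelid array (-5.77, -6.58 and -6.67), at least 6.2-fold, and by a second probe at least 1.82-fold. Chrm1, a muscarinic receptor, was higher by 2.19. Aqp3, a glycerol channel that epidermis makes in quantity, differed by -5.56. Lipid synthesis, the later specialty of the gland, had 10 of 44 genes (22.7%) called higher and 8 (18.2%) lower, also near those shares, with a median of 0.13 that is close to the 0.11 of all genes. Mogat2, an enzyme of acylglycerol synthesis, had 0.10, -0.22 and -0.01 against -3.39, -3.37 and -3.51 (3.38, SE 0.42, adjusted p 2.76e-06), and the desaturases Fads1 and Fads2 were higher by 1.96 and 2.32. Dgat2, the last enzyme of triglyceride synthesis, was lower in the gland, 2.18, 1.96 and 2.27 against 6.52, 6.89 and 6.51 (-4.51, SE 0.24). Fasn, Srebf1 and Elovl6 were not called (-0.15, 0.18 and 0.21). Of 10 genes listed under porphyrin synthesis 3 (30%) were called higher, near the 26.6% of all genes. Among them were Slc25a39, a carrier and not an enzyme of the pathway (1.29), and the enzyme Urod (0.59). Fech was called lower (-0.64), and the calls of Urod and Fech were lost under median scaling. Red cells make the same enzymes, and their markers were higher in the gland arrays as given above; their part was not tested.

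**Figure D3:**
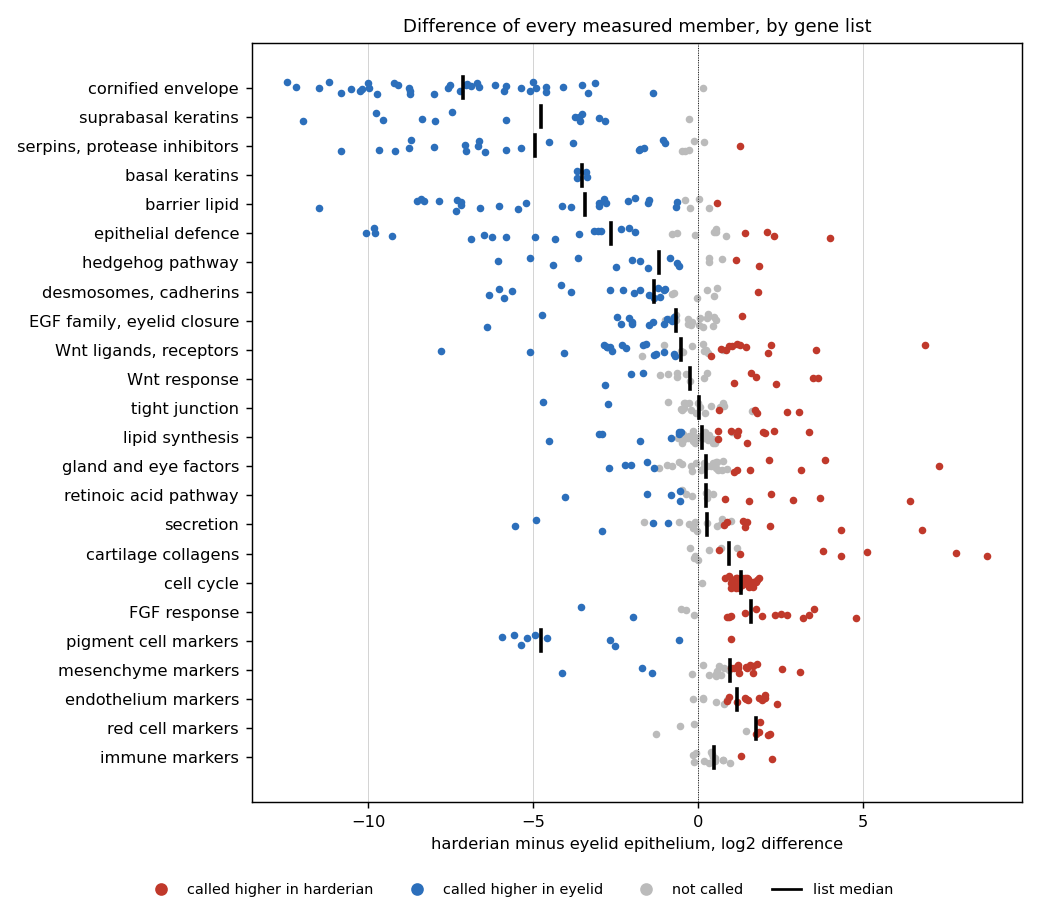
Harderian minus eyelid epithelium log2 difference of every measured member of 24 gene lists (one point per gene, red called higher in the gland, blue called higher in the eyelid, grey not called; black bar, list median). Cornified envelope genes lie almost wholly to the left with a median of -7.13, cell cycle genes form a tight group around 1.32, and lipid synthesis genes centre near 0.

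Markers of pigment cells were lower in the gland epithelium. Of 10 markers 9 were called lower in the gland and 1, Ednrb, higher, with a median of -4.76 (-4.14 with 2 dim genes at their bound). Dct had -0.84, 0.36 and 1.41 on the harderian epithelial arrays, which were spread out, against 6.14, 6.07 and 6.51 on the eyelid arrays. The summed level of the list was 6.53 to 9.70 in harderian and 107 to 153 in eyelid epithelium, while the mesenchymes had 87.9 to 119 and 80.4 to 91.1. Conjunctiva and cornea markers had 7 of 16 (43.8%) called lower in the gland and 2 (12.5%) higher, against 18% and 26.6% of all genes. Their summed levels were 76.2 to 85.1 in harderian against 288 to 383 in eyelid epithelium. Krt12, the corneal keratin, differed by -1.54.

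The same tissue contrast was then taken in mesenchyme, with 3 arrays each and no array shared with the epithelial contrast. Over 16293 genes the epithelial and mesenchymal differences had a correlation across genes of 0.343, a description in which genes are not independent and slides are shared. Of the genes called in both, 1313 had the same and 739 the opposite sign. The difference of both differences was called for 3188 genes in the positive direction, 19.5% of those tested, and for 2760 in the negative direction (16.9%). With the replicate number as a block these counts were 4886 and 4208. Cornified envelope genes were lower in the mesenchyme of the gland too, 27 of 40 called (11.3% of all genes tested), with a median of -2.71 there against -7.13 in epithelium. On the eyelid side their epithelial level was above the mesenchymal level by a median of 5.16. Epithelial markers summed to 105 to 243 on the eyelid mesenchymal and to 11.1 to 31.8 on the harderian mesenchymal arrays, so the eyelid mesenchyme held more epithelial signal, whose part in the mesenchymal contrast was not tested.

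Col9a1 and Col2a1 differed between the tissues far more in epithelium than in mesenchyme. In mesenchyme they differed by 0.04 and 0.22, and the difference of differences was 8.74 (SE 0.99, adjusted p 2.06e-06) and 7.62 (SE 0.76, adjusted p 4.95e-07). The homeobox gene Irx1 reversed between compartments. It had 5.68, 5.01 and 5.26 in harderian and 1.26, 1.29 and 0.56 in eyelid epithelium, and in mesenchyme 1.27, 0.83 and 0.11 against 5.11, 4.82 and 4.81, which gave 8.45 (SE 0.53, adjusted p 2.12e-09). Spon1 also changed sign, with a mesenchymal difference of -2.52. Fcmr was at least 3.45-fold higher in the gland in epithelium, where no eyelid array was above background, and at least 7.13-fold higher in the eyelid in mesenchyme, where no harderian array was. On the negative side Il22ra2, a soluble decoy receptor for interleukin 22, and Gdpd2 behaved alike in direction, higher in the gland by at least 2.42-fold for Il22ra2 and by 4.16 (log2) for Gdpd2 in mesenchyme, against at least 24.1-fold higher in the eyelid for Il22ra2 and -4.81 for Gdpd2 in epithelium. Gm3776 and Gm10639 belong to a family of near-identical glutathione transferase genes, so their probes may read each other. In epithelium Gm3776 was at least 356-fold higher in the eyelid and Gm10639 differed by -9.20, with 1 of 3 harderian arrays above background and a second probe at least 54.1-fold higher in the eyelid, and in mesenchyme they differed by -0.31 and -0.40.

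**Figure D4:**
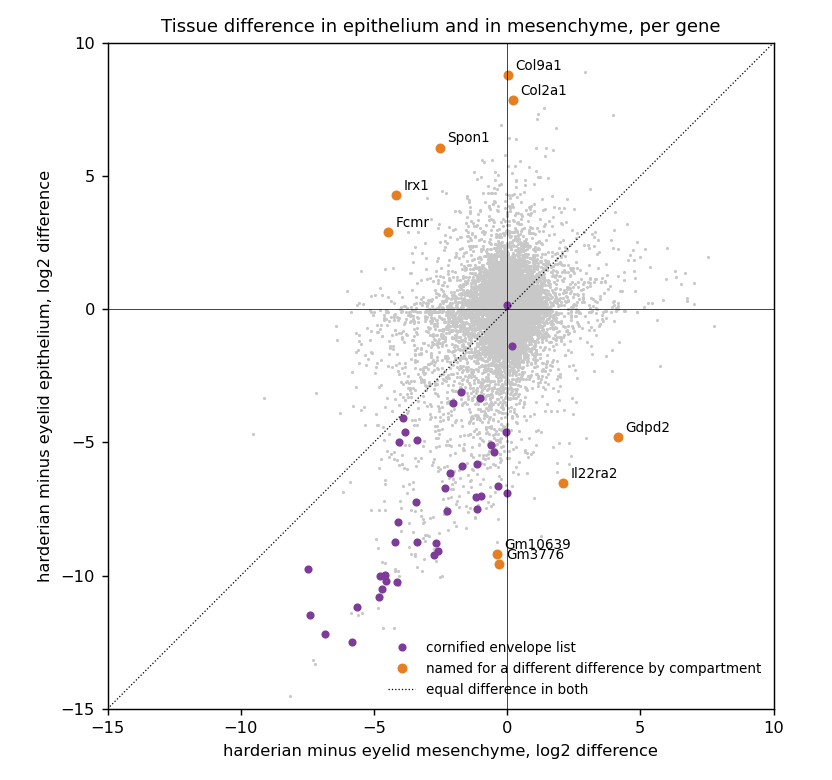
Harderian minus eyelid log2 difference in epithelium (vertical) against that in mesenchyme (horizontal), one point per gene, with cornified envelope genes in purple and the 9 genes named for the difference of differences in orange. Col9a1 and Col2a1 sit on the vertical axis near 8, Irx1, Spon1 and Fcmr have opposite signs in the compartments, and most cornified envelope genes lie below the dotted line of equal difference.

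Lacrimal gland epithelium, from another gland of the same origin, was compared with the same eyelid and harderian arrays, so the values are given side by side. The cornified envelope list had a median of -7.13 for harderian and of -7.56 for lacrimal against eyelid epithelium, the cell cycle list 1.32 and 1.24, and the FGF response list 1.60 and 1.69. Col9a1 was higher than in the eyelid by 8.78 in harderian and by 9.67 in lacrimal epithelium, Sox10 by 3.87 and 4.52, and Stra6 by 6.43 and 6.07. Between the glands Col9a1, Sox10 and Stra6 were not called (-0.89, -0.65 and 0.36).

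A smaller set was higher in harderian epithelium than in both others. By at least 2-fold and called against each, 167 genes (1.02% of those tested) were higher and 100 (0.613%) lower. These counts come from the rule of the set, and no further test was made on it. Gata6 led, with -1.81, -2.90 and -1.76 in lacrimal epithelium, a harderian minus lacrimal difference of 6.25. Synm, an intermediate filament protein, had 3.26, 2.57 and 2.75 in harderian, -1.30, -1.42 and -1.15 in lacrimal and -1.39, -1.80 and -2.19 in eyelid epithelium. Lgr5 had -1.47, -1.83 and -1.13 in lacrimal epithelium, close to its eyelid values and all below the harderian ones. Tmem132b, 2700046A07Rik, A930009A15Rik, Ccn6, Mep1a, Grik1 and Cxcl2 were above background on no eyelid array, with harderian over eyelid bounds of at least 3.07-fold for Cxcl2 to at least 13.1-fold for Tmem132b. Of these, Grik1 was brighter in harderian mesenchyme than in harderian epithelium. On the lower side Kng1 (kininogen) had 1.46, 1.24 and 1.20 in eyelid and -2.61, -2.73 and -3.64 in lacrimal epithelium and no harderian array above background. Ank, a membrane protein of pyrophosphate export, had -1.61, -1.23 and -1.17 in harderian against 1.24, 0.88 and 1.39 in lacrimal and 1.89, 2.38 and 1.92 in eyelid epithelium. Trim71 and Ambn were above background on no harderian array, and Itprid1 on 2 of 3. Without the filter on dim probes another probe stood for Trim71 and its difference from the eyelid was -0.15 (adjusted p 0.866). With normexp background correction Ambn lost both calls, at -0.46 against eyelid (adjusted p 0.0875) and -0.29 against lacrimal epithelium (adjusted p 0.648). Trim71 then lost its call against lacrimal epithelium (-0.63, adjusted p 0.0775).

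Wnt-related genes ordered the 3 epithelia differently from gene to gene. Lef1 had levels of -5.14, -5.85 and -5.24 in lacrimal, 0.26, 0.11 and 0.41 in harderian and 3.11, 3.46 and 2.63 in eyelid epithelium, with no overlap between any groups and 1 of 3 lacrimal arrays above background. Sp5 had -2.66, -2.37 and -2.50 in lacrimal, against 1.71, 1.83 and 2.16 in eyelid and 3.04, 2.75 and 3.24 in harderian epithelium. Of the 17 Wnt response genes 9 were called higher in harderian than in lacrimal epithelium (3.39% of all genes tested), with a median of 1.94. Six2 ran in the other order, lowest in harderian (0.10, 1.29 and 1.39), then eyelid (2.98, 2.66 and 3.22), then lacrimal epithelium (4.51, 4.37 and 4.65).

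**Figure D5:**
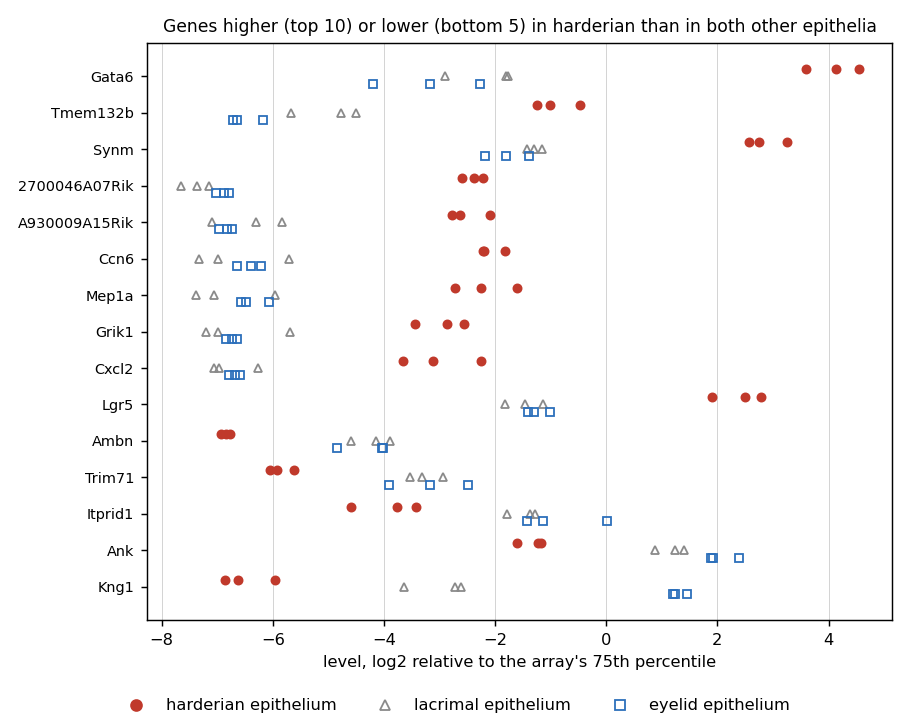
Level of the 10 higher and 5 lower genes with the largest differences of harderian epithelium (filled circles) from both lacrimal (open triangles) and eyelid epithelium (open squares), 3 arrays each, as log2 signal relative to the array's 75th percentile. For Gata6, Synm and Lgr5 the lacrimal and eyelid points lie together well below the harderian ones, whereas for Kng1 the lacrimal points fall between the others.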

How the data were processed

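RNA of each sample was hybridised in 1 colour (Cy3) to an Agilent array, and the deposited intensity per spot is background-corrected by the authors' scanner software, Feature Extraction, per the file headers. The submitters' processing notes name version 11.5.1.1, while the headers give 11.0.1.1 for the 7 arrays of slide 1 and 11.5.1.1 for the other 16. From these, log2 of the mean processed signal of a probe (outlier spots left out) minus the array's 75th percentile was computed. A probe was kept if, in 1 or more of the 8 groups, a 0.5 share or more of its spots exceeded background (the scanner software's call) on all arrays, and the brightest probe over the 23 arrays stood for a gene, which left 16324 genes. Of 55681 probes 27509 had 1 symbol. One model over all 23 arrays and 8 groups was fitted with limma 3.58.1 in R 4.3.3, and p-values were adjusted over all genes by Benjamini-Hochberg (threshold 0.05). A bound of a fold sets the bright group's mean against the higher of the dim probe's own signal and the lowest signal well above background on each array. The procedure was tested on simulated data.

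The comparison, its gene lists and the genes searched for were chosen with earlier results of these data known. Named genes were the 15 largest called differences in each direction (brighter group above background throughout, groups not overlapping), 5 in each direction for the difference of differences, 10 higher and 5 lower in the harderian set, 20 regulators and keratins whatever their call, and up to 4 leading members of a list or those a sentence needs, with the other probes where they disagree. Some genes under this rule are not reported here. Residuals of same-numbered arrays correlated at 0.182, 0.408 and 0.405, and those numbers mark slides, so the numbers pair the arrays. Alternatives changed the background correction, scaling, filter, probe choice, arrays fitted and block, and left out each array in turn. Normexp used median spot signals.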

Additional observations from a re-analysis of the deposited data

Results flagged for a closer look

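These genes were among those with the largest called differences of differences, the harderian minus eyelid difference in epithelium less that in mesenchyme, by a limma contrast of the difference itself (log2, adjusted p over all genes). On the positive side they were Col9a1 (8.74, 2.06e-06), Spon1 (8.58, 8.2e-08), Irx1 (8.45, 2.12e-09), Col2a1 (7.62, 4.95e-07) and Fcmr (7.35, 1.75e-07). On the negative side they were Gm3776 (-9.26, 1.45e-09), Gdpd2 (-8.97, 1.28e-06), Gm10639 (-8.80, 2.4e-09) and Il22ra2 (-8.64, 7.51e-09). Of these, Gm3776 and Il22ra2 were above background on no harderian epithelial array, Il22ra2 also on no eyelid mesenchymal array, and Fcmr on no eyelid epithelial and no harderian mesenchymal array, so their fitted values depend on signal under background. Spon1 had 2 of 3 eyelid and Gm10639 1 of 3 harderian epithelial arrays above background.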

How the results depend on the processing

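No call of a named gene changed direction under the alternatives run. The median difference of all genes turned from 0.107 to -0.015 with no filter on dim probes, and the balance of genes at least 2-fold higher and lower turned to 2589 and 1710 under median scaling. Of the values of named genes under alternatives, 4306 kept their side of the threshold, 86 lost the call and 13 gained it. Requiring signal above background on all 23 arrays, which tests 10876 genes, left 1034 genes at least 2-fold higher (1903) and 849 lower (1990), 1790 called lower (2944), 51 and 40 in the harderian set (167 and 100) and 1757 differences of differences called lower (2760); main counts stand in brackets. The lists it shortened were called as follows: barrier lipid 6 (25), cornified envelope 8 (39), cell cycle 16 (31), suprabasal keratins 3 (13), epithelial factors 10 (17), hedgehog 4 (11), placode and follicle 5 (13), Wnt response 2 (6), endothelium 6 (11) and melanocyte 4 (9). Members that failed this filter were no longer tested, so these counts are not counts of lost calls. Of the values of named genes still tested 69 kept their side of the threshold, 0 lost the call and 1 gained it. Median scaling moved that median to 0.288 and gave 1878 called lower, with 1881 and 1514 differences of differences (3188 and 2760). No scaling gave 2542 higher (4339) and 1882 lower, 100 in the higher set, and 1377 and 1573 differences of differences. Normexp gave 95 and 46 in the set. The replicate block gave 5980 higher and 4023 lower, 4886 and 4208 differences of differences, and changed the calls of Krt8, Foxc1 and Trp63 among named genes. Leaving out 1 array gave 3519 to 4169 higher and 2590 to 2844 lower. The share of called genes that were higher was 56.2 to 65.4 percent over all alternatives (59.6). The number of arrays limits precision, and of all genes tested 793 were above background in neither epithelium.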
